A study of Homo sapiens with 4 samples.

Results

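The S100 calcium-binding proteins were followed here as 10 genes out of the 58884 in the table: S100A2, S100A3, S100A4, S100A6, S100A8, S100A9, S100A10, S100A11, S100A16 and S100P. Their symbols were matched to the Ensembl identifiers of the table, and all 10 were found. They were selected on family membership with their TPM values in all 4 libraries, and so both CRABP1 ratios, already known. Every value is therefore a description, and none was tested. RNA was sequenced from FTC-133, a follicular thyroid carcinoma line, and from 8505C, an anaplastic one. Each line had been transfected either with an empty vector or with a vector that overexpresses CRABP1, a cytoplasmic carrier of retinoic acid, and the study asks what CRABP1 changes in these cells. Each of the 4 groups held 1 library, with no replicate. The labels do not say whether a library came from a clone or a pool of transfected cells.

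S100 proteins are small proteins with EF-hands, the loop in which calcium is bound. Most form dimers, and binding of calcium exposes a surface that grips a target protein such as an annexin or a myosin. Some members also leave the cell and act on the receptors AGER (RAGE) and TLR4. S100A4 is widely studied as a protein associated with metastasis.

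Levels are in TPM, which corrects the reads for gene length and brings every library to one total, so levels can be compared between genes. CRABP1 itself had a level of 0 in the vector libraries; with its own vector it reached 385 TPM (FTC-133) and 537 TPM (8505C). About 19174519 to 20331597 reads lay behind each library, and mitochondrially encoded genes held between 25.9% and 28.6% of the TPM. Of the thyrocyte markers, TG was at most 0.681 TPM and SLC5A5 at 0 in every library. The thyroid factor NKX2-1 was at 44.7 and 17.7 TPM in FTC-133 and at 118 and 113 TPM in 8505C, the vector library given before the CRABP1 library here and in what follows, while PAX8 was at 100.1 and 143 TPM against 0.240 and 0.161 TPM. In bulk RNA, fewer cells that express a gene and less RNA per cell cannot be told apart.

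The libraries divided the 10 genes into 3 sets. S100A6, S100A10 and S100A11 were among the most abundant RNAs of every library. S100A2, S100A3, S100A4 and S100A16 lay between 1.87 and 478 TPM. S100A8, S100A9 and S100P were below 1 TPM throughout. The 10 genes summed to 6595 and 6002 TPM in FTC-133 and to 4253 and 4100 TPM in 8505C, and the first 3 made up between 89.7% and 94.5% of that sum.

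**Figure D1:**
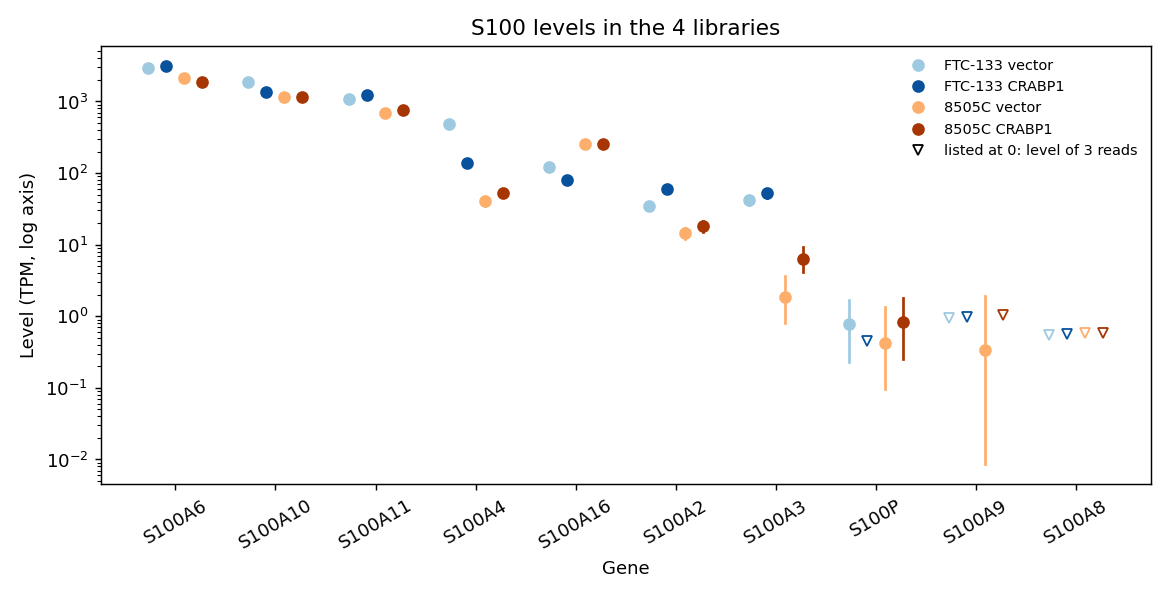
Level of each of the 10 genes (TPM, log axis) in the 4 libraries, with bars for the 95% counting interval; open triangles mark a gene listed at 0, drawn at the level of 3 reads. S100A6, S100A10 and S100A11 lie at 688 TPM or more in every library, and S100A8, S100A9 and S100P lie below 1 TPM.

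Of the 10 genes, 9 lie on the long arm of chromosome 1, and S100P lies on chromosome 4 (GRCh38, 6693069 to 6697170, plus strand). S100A6, S100A5, S100A4, S100A3 and S100A2 follow one another on the minus strand. Their RefSeq start sites lie within 29.9 kb, and those of S100A4 and S100A3 are 3.45 kb apart. The sequences before the starts of S100A4, S100A3 and S100A2 are shown because these direct neighbours had different ratios in the same cells. RefSeq held a promoter entry for all 10 genes (GRCh38.p14). In those of S100A6, S100A10 and S100P a GENCODE 29 exon covered the first base, so no stretch was left to search. Only the stretch that no GENCODE 29 exon covers is printed, 5′ to 3′ on the minus strand, and capitals mark motif matches.
S100A4 (chr1:153545886-153546056): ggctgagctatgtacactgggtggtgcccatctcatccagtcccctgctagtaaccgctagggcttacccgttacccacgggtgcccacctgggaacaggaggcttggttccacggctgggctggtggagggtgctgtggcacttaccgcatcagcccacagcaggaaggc
S100A3 (chr1:153549373-153549508): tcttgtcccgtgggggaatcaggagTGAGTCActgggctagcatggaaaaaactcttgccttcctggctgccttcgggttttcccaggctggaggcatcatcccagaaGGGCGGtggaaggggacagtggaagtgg
S100A2 (chr1:153565866-153566094): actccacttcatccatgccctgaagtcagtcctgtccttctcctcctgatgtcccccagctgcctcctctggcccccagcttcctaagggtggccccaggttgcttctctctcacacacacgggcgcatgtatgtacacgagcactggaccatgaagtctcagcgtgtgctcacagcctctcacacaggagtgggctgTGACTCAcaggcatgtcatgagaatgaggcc

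Both strands were searched for the TATA box (TATAAA), the GC box (GGGCGG), the AP-1 site (TGANTCA), the nuclear receptor half-site (AGGTCA) and the NF-kB consensus. The stretches of S100A3 and S100A2 held 1 AP-1 match each, and S100A3 also held 1 GC box. The S100A4 stretch held none of the 5 motifs. Each stretch stops at the first exon reached, short of the RefSeq start. The starts are at 153545806 (S100A4), 153549258 (S100A3) and 153565844 (S100A2). Bases between a stretch and its start were not searched, so a motif there would be missed. Among all 27305 RefSeq promoters, an AP-1 match occurred in 3.45% of windows as long as that of S100A3, 6.23% as long as that of S100A2 and 4.53% as long as that of S100A4. A GC box occurred in 22.9% of windows as long as that of S100A3. The stretches of S100A8, S100A9, S100A11 and S100A16, not printed, held no AP-1 match. Because the printed genes were picked by their ratios, the motifs are not read against those ratios. A match is only a run of letters and does not show binding.

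S100A4 binds the heavy chain of non-muscle myosin IIA and affects cell motility. In FTC-133 it was at 478 and 139 TPM (about 2462 and 693 reads). In 8505C it was at 40.3 and 51.9 TPM (about 194 and 249 reads). FTC-133 with vector thus stood above the other 3 libraries, and both 8505C libraries were lowest. The level with CRABP1 was 3.44-fold lower in FTC-133 (95% interval for counting error only, 3.16 to 3.75) and 1.29-fold higher in 8505C (1.06 to 1.56). It was the 1 gene, of the 7 that averaged 1 TPM or more over the libraries compared, that passed 2-fold in FTC-133, and it did so downward. On the log2 scale of TPM + 1, its ratio of -1.78 had rank 22 from the lowest among the 12767 protein-coding genes that held 20 reads or more. Of all genes averaging 1 TPM or more, 4.92% were past 2-fold lower and 6.02% past 2-fold higher, and of those protein-coding genes 1.46% and 2.06%.

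S100A4 is also used as a fibroblast marker. The 9 fibroblast markers summed to 839 and 578 TPM in FTC-133 and to 57.4 and 78.8 TPM in 8505C, so the sum was on the same side as S100A4 in both lines. In 8505C the sum was mostly COL3A1, at 50.0 and 66.0 TPM, which was at 3.18 and 2.95 TPM in FTC-133. COL3A1 was thus higher in 8505C, unlike S100A4. Of the measured markers, FTC-133 had 3 higher and 4 lower, and 8505C had 4 of 4 higher. With median-ratio scaling these markers split into 2 higher and 5 lower in FTC-133, and 4 higher and 1 lower in 8505C. Among them, COL1A1, a chain of type I collagen, was at 388 and 175 TPM in FTC-133, 2.22-fold lower (2.17 to 2.28), and LUM, the matrix proteoglycan lumican, was at 1.99 and 6.42 TPM in 8505C, 3.23-fold higher (2.13 to 5.04). COL1A2, the other chain of that collagen, was at 213 and 156 TPM in FTC-133 and under 0.1 TPM in 8505C. THY1 was at 162 and 152 TPM in FTC-133 and at 0 and 0.0998 TPM in 8505C. On the other side in FTC-133 were the receptor PDGFRB, at 9.60 and 18.5 TPM (1.92-fold higher, 1.69 to 2.19), and the surface protease FAP, at 27.4 and 37.3 TPM (1.36-fold higher, 1.26 to 1.48). Their part in the S100A4 values was not tested.

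S100A10 carries no calcium in its EF-hands and pairs with annexin A2, a membrane-binding protein, in a complex that also binds plasminogen at the cell surface. It was at 1867 and 1342 TPM in FTC-133, and at 1151 and 1136 TPM in 8505C. The FTC-133 vector library was the highest of the 4. With CRABP1 the FTC-133 level was 1.39-fold lower (1.36 to 1.43), and the ratio in 8505C was 0.987 (0.959 to 1.02). ANXA2 itself was at 614 and 452 TPM in FTC-133, 1.36-fold lower (1.33 to 1.38), and at 1020 and 984 TPM in 8505C, 1.04-fold lower (1.02 to 1.05). AHNAK, a giant scaffold protein that binds the S100A10 and annexin A2 complex, was at 647 and 477 TPM in FTC-133, 1.36-fold lower (1.34 to 1.37), and had a ratio of 1.03 in 8505C (1.02 to 1.04). S100A10, ANXA2 and AHNAK were thus all lower in FTC-133, each short of 2-fold, beside 57.8% of all genes above 0. The wider partner list that holds AHNAK had 17 genes higher and 13 lower there. A joint change of these genes was not tested.

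S100A11 binds annexin A1. It was at 1097 and 1235 TPM in FTC-133 and at 688 and 755 TPM in 8505C, a ratio of 1.13 (1.08 to 1.18) and of 1.10 (1.04 to 1.16) with CRABP1. ANXA1 was at 294 and 249 TPM in FTC-133 and at 610 and 697 TPM in 8505C, with ratios of 0.846 (0.817 to 0.875) and 1.14 (1.12 to 1.17). S100A11 was thus slightly higher with CRABP1 in both lines, and its annexin was lower in FTC-133 and higher in 8505C.

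S100A6, calcyclin, binds the ubiquitin-ligase adaptor CACYBP and several annexins. It was the highest of the 10 genes in every library, at 2954 and 3095 TPM in FTC-133 and at 2100 and 1875 TPM in 8505C, and ranked between 26 and 39 among all genes. With CRABP1 the ratio was 1.05 in FTC-133 (1.02 to 1.07) and 0.893 in 8505C (0.868 to 0.919). The FTC-133 difference was as small as the scaling of the libraries: its log2 ratio of 0.07 was 0.0022 with median-ratio scaling, while that of 8505C was -0.16 and -0.18. An antisense gene, BX470102.1, overlaps S100A6 and was listed between 11.5 and 19.0 TPM; without a stated strand setting the reads of both cannot be told apart.

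S100A16 is one of the most widely expressed members of the family. It was at 122 and 79.8 TPM in FTC-133, and at 257 TPM in both 8505C libraries. All FTC-133 values were below all 8505C values. The level was 1.54-fold lower with CRABP1 in FTC-133 (1.40 to 1.69), and the ratio in 8505C was 0.997 (0.94 to 1.06).

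S100A2, a mostly nuclear member, was at 34.5 and 59.5 TPM in FTC-133 and at 14.4 and 18 TPM in 8505C. Its ratio was 1.73 in FTC-133 (1.49 to 2.00) and 1.25 in 8505C (0.969 to 1.61), and the second interval includes 1.

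S100A3, a cysteine-rich member known from the hair cuticle, was at 41.5 and 51.8 TPM in FTC-133 and at 1.87 and 6.33 TPM in 8505C. The 8505C values rest on about 8 and 27 reads. The ratio was 1.25 in FTC-133 (1.03 to 1.52) and 3.39 in 8505C (1.5 to 8.62), a wide interval. It was the 1 of the 7 measured genes past 2-fold in 8505C, upward. There 3.7% of all genes were past 2-fold higher and 4.07% lower, and 0.242% and 0.5% of the protein-coding genes that held 20 reads or more. These shares describe contrasts whose values were known when the genes were selected, and nothing is read from them. S100A3 lies in an intron of a long S100A4 transcript, and their exons do not overlap in GENCODE 29. The TPM of these genes gave whole reads with lengths of 841 (S100A3) and 946 bases (S100A4). Their GENCODE 29 lengths are 955 and 1025 bases, so the gene models used for counting may differ. Whether reads were shared by both genes was not tested.

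**Figure D2:**
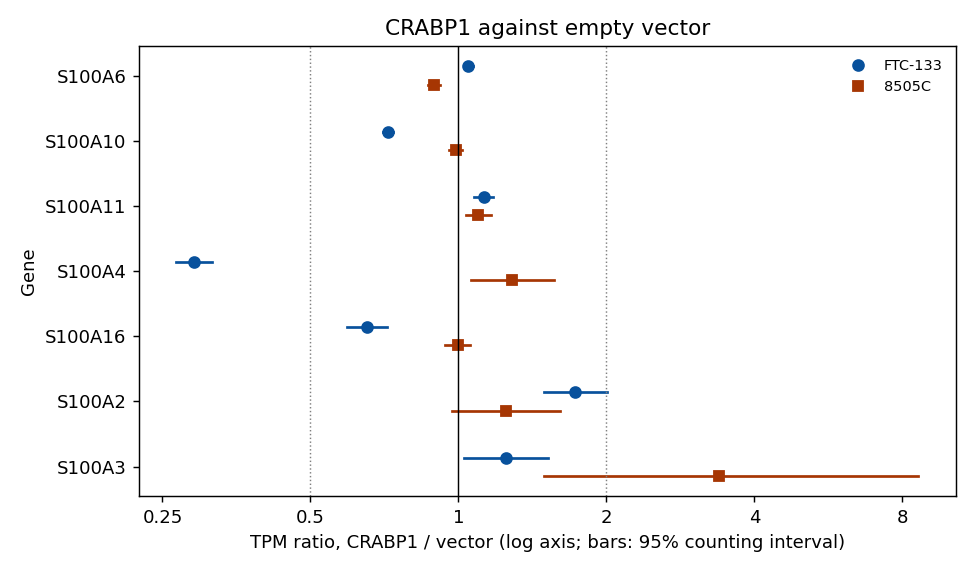
TPM ratio of CRABP1 to empty vector (log axis) for the 7 genes averaging 1 TPM or more, circles for FTC-133 and squares for 8505C, with 95% counting intervals and dotted lines at 2-fold. S100A4 in FTC-133 (0.290) and S100A3 in 8505C (3.39) lie beyond the dotted lines.

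Across the 7 genes, 4 were higher and 3 lower with CRABP1 in each line. The median log2 ratio was 0.07 in FTC-133, where that of all genes was 0.06, and 0.13 in 8505C, where that of all genes was 0.02. S100A2, S100A3 and S100A11 had a ratio above 1 in both lines, with an interval that included 1 for S100A2 in 8505C. S100A10 and S100A16 had one below 1 in both, but in 8505C their intervals included 1.

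S100A8 and S100A9 form calprotectin, the calcium- and zinc-binding complex of neutrophils and inflamed epithelium. S100A8 was listed at 0 in all 4 libraries, where 3 reads would be between 0.548 and 0.588 TPM and the upper limit of the Poisson interval lies between 0.674 and 0.723 TPM. S100A9 had about 1 read in 8505C with vector (0.343 TPM) and 0 elsewhere. No fold is given for either. Of 9 neutrophil companion genes, CYBA, the small subunit of the NADPH oxidase, was at 42.7 and 51.7 TPM in FTC-133 and at 65.1 and 60.0 TPM in 8505C. Lactoferrin, LTF, reached 0.929 TPM in 8505C with CRABP1. The leukocyte markers LYZ, FCGR3A and TYROBP were at 0 in every library, and PTPRC was at most 0.194 TPM. The 13 leukocyte markers summed to 20.1 and 8.18 TPM in FTC-133, mostly LAPTM5 at 16.2 and 5.05 TPM (3.21-fold lower with CRABP1, 2.52 to 4.13), and to 59.0 and 30.2 TPM in 8505C, mostly the endotoxin co-receptor CD14 at 56.5 and 28.6 TPM (1.98-fold lower, 1.71 to 2.29). The 6 endothelial markers summed to 6.62 and 9.15 TPM in FTC-133 and to 109 and 101 TPM in 8505C, mostly CDH5 at 103 and 97.9 TPM. The part of these markers in the S100 values was not tested.

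S100P, a placental and tumour-associated member that binds the membrane linker ezrin, was at 0.780 and 0 TPM in FTC-133 and at 0.417 and 0.837 TPM in 8505C. These values come from 5 reads or fewer by the GENCODE length, which does not give whole reads for this gene. A difference was not detectable at this depth. Ezrin (EZR) was at 283 and 182 TPM in FTC-133 and at 294 and 319 TPM in 8505C.

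Between the lines 4 of the 7 genes were past 2-fold, with vector and with CRABP1. With empty vector, 8505C was lower than FTC-133 by 22.2-fold for S100A3 (11 to 52.1), 11.9-fold for S100A4 (10.2 to 13.8) and 2.39-fold for S100A2 (1.92 to 2.99). S100A16 was 2.10-fold higher in 8505C (1.96 to 2.26). That made 3 of 7 genes lower and 1 higher past 2-fold, beside 21.6% lower and 12.1% higher among all genes, and 16.6% and 9.97% among protein-coding genes. With CRABP1 the 4 genes and their sides were the same: 8.19-fold lower for S100A3 (5.48 to 12.7), 2.67-fold for S100A4 (2.31 to 3.10), 3.31-fold for S100A2 (2.74 to 4.01), and 3.22-fold higher for S100A16 (2.96 to 3.51). There 23% of all genes were lower and 11.3% higher past 2-fold, and 17.3% and 9.38% of protein-coding genes. The S100A4 gap between the lines was thus 11.9-fold with vector and 2.67-fold with CRABP1.

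The abundant S100A6, S100A10 and S100A11 were lower in 8505C by 1.41-fold, 1.62-fold and 1.6-fold with vector and by 1.65-fold, 1.18-fold and 1.64-fold with CRABP1. Median-ratio scaling moved the median log2 ratio of all genes from -0.17 to -0.04 with vector and from -0.21 to -0.04 with CRABP1. Under it, S100A10 had a log2 ratio of -0.55 with vector and -0.05 with CRABP1, so its lower level in 8505C with CRABP1 is about the size of that shift.

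**Figure D3:**
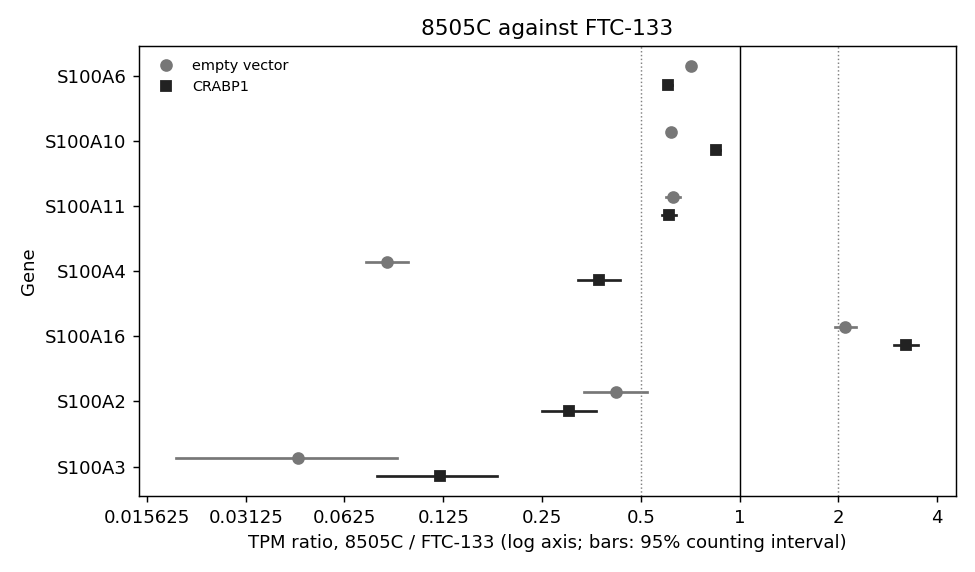
TPM ratio of 8505C to FTC-133 (log axis) for the 7 genes, circles for empty vector and squares for CRABP1, with 95% counting intervals and dotted lines at 2-fold. S100A16 is the 1 gene to the right of 1, at 2.10 and 3.22, and S100A3 and S100A4 lie farthest to the left with vector.

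The order of the levels in FTC-133 with vector was S100A6, S100A10, S100A11, S100A4, S100A16, S100A3 and S100A2. With CRABP1 S100A2 and S100A3 changed places, but their counting intervals, 54.4 to 65.0 and 45.3 to 59.0 TPM, overlapped, as they did with vector (30.6 to 38.6 and 35.8 to 47.8 TPM). In both 8505C libraries S100A16 stood above S100A4, and S100A3 was last.

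Of 11 other S100 genes, 3 averaged 1 TPM or more in some comparison. S100A5, the gene between S100A6 and S100A4, was at 19.7 and 12.6 TPM in FTC-133, lower with CRABP1 by 1.57-fold (1.09 to 2.26), and had 1 and 3 reads in 8505C. S100A13, which takes part in the release of FGF1, was at 26.9 and 29.2 TPM in FTC-133 and at 20.6 and 18.9 TPM in 8505C, with intervals that include 1 (0.927 to 1.26 and 0.757 to 1.11). S100G, the vitamin D-dependent calbindin, had 6 reads (2.60 TPM, interval 0.954 to 5.66) in 8505C with CRABP1 and 0 with vector (upper limit 1.59 TPM). These intervals overlap, and no fold is given. S100B, the glial member, was at most 0.305 TPM, and S100A12, S100A7A and S100A7L2 were at 0.

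**Figure D4:**
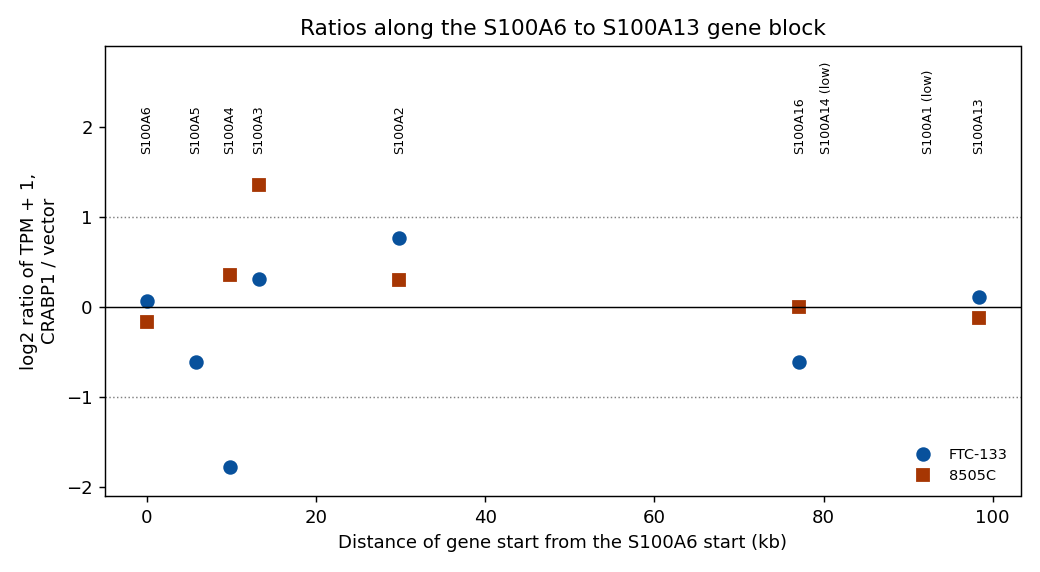
Log2 ratio of TPM + 1, CRABP1 to vector, against the distance of each gene's RefSeq start from that of S100A6 (kb); circles are FTC-133 and squares 8505C, and genes marked low had a mean under 1 TPM. In FTC-133 S100A4 (-1.78) lies between S100A5 (-0.61) and S100A3 (0.31), and in 8505C S100A3 (1.35) lies between S100A4 (0.36) and S100A2 (0.30).

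Between S100A10 and S100A1 the annotation holds 55 other protein-coding genes, among them the LCE and SPRR families of the epidermal differentiation complex, the skin barrier genes. Only 5 were measured in FTC-133 and 6 in 8505C, and 0 passed 2-fold in either on the scale of TPM + 1. HRNR, at 0.763 and 1.63 TPM in FTC-133, had a plain TPM ratio of 2.14 (1.45 to 3.21). In 8505C HRNR was at 0.898 and 0.205 TPM and was not among the measured genes. The largest log2 ratios in FTC-133 were those of SPRR2D (0.63), S100A5 (-0.61) and HRNR (0.58), and in 8505C those of IVL (-0.54), LCE2A (-0.49) and SPRR2D (0.22). SPRR2D had 4 and 9 reads in FTC-133 and 13 and 16 in 8505C, and the counting interval of its ratio included 1 in both lines (0.648 to 10.3 and 0.557 to 2.79), as did that of LCE2A in 8505C (0.487 to 1.01). KPRP, a keratinocyte protein, was at 34.1 and 32.3 TPM in 8505C and at 0 in FTC-133, and LCE2A was at 25.7 and 18.1 TPM in 8505C. FLG, filaggrin, which carries an S100 domain at its start, was at 8.53 and 7.09 TPM in FTC-133 and at 6.94 and 8.07 TPM in 8505C.

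Annexins, the calcium-dependent membrane proteins that many S100 dimers grip, were lower with CRABP1 in 8 of 10 cases in FTC-133 (median log2 ratio -0.16), beside 57.8% of all genes above 0. In 8505C 3 were higher and 6 lower (median -0.01). ANXA9 was the 1 annexin past 2-fold, at 12.6 and 4.4 TPM in FTC-133 (2.86-fold lower, 2.00 to 4.15). ANXA5, which binds phosphatidylserine, was at 628 and 562 TPM in FTC-133 and at 378 and 390 TPM in 8505C.

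The next list holds intracellular partners and the plasminogen genes PLAU, PLAT, PLAUR and PLG, whose products are secreted or on the cell surface. Of 30 measured in FTC-133, 17 were higher and 13 lower (median 0.02), a split that became 14 and 16 (median -0.04) with median-ratio scaling. In 8505C 22 of 29 were higher (median 0.10), beside 54.7% of all genes above 0, and 0 passed 2-fold in either line. PLAU, the secreted protease urokinase, was the most abundant, at 1507 and 1701 TPM in FTC-133 and at 1846 and 1567 TPM in 8505C. RHOA, a GTPase of the actin cytoskeleton, was at 817 and 718 TPM in FTC-133 and at 692 and 801 TPM in 8505C. Direct partners of the members were named after their values had been seen, EZR above and TLR4 and AGER below included. MYH9, the myosin IIA heavy chain bound by S100A4, was at 789 and 538 TPM in FTC-133, 1.47-fold lower (1.44 to 1.49), and at 661 and 682 TPM in 8505C. For EZR the FTC-133 level was 1.56-fold lower (1.49 to 1.63) and the 8505C ratio was 1.08 (1.04 to 1.13). CACYBP was 1.29-fold lower (1.21 to 1.38) and had a ratio of 1.11 in 8505C (1.04 to 1.18). MYH9, EZR and CACYBP were thus lower with CRABP1 in FTC-133 and slightly higher in 8505C.

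**Figure D5:**
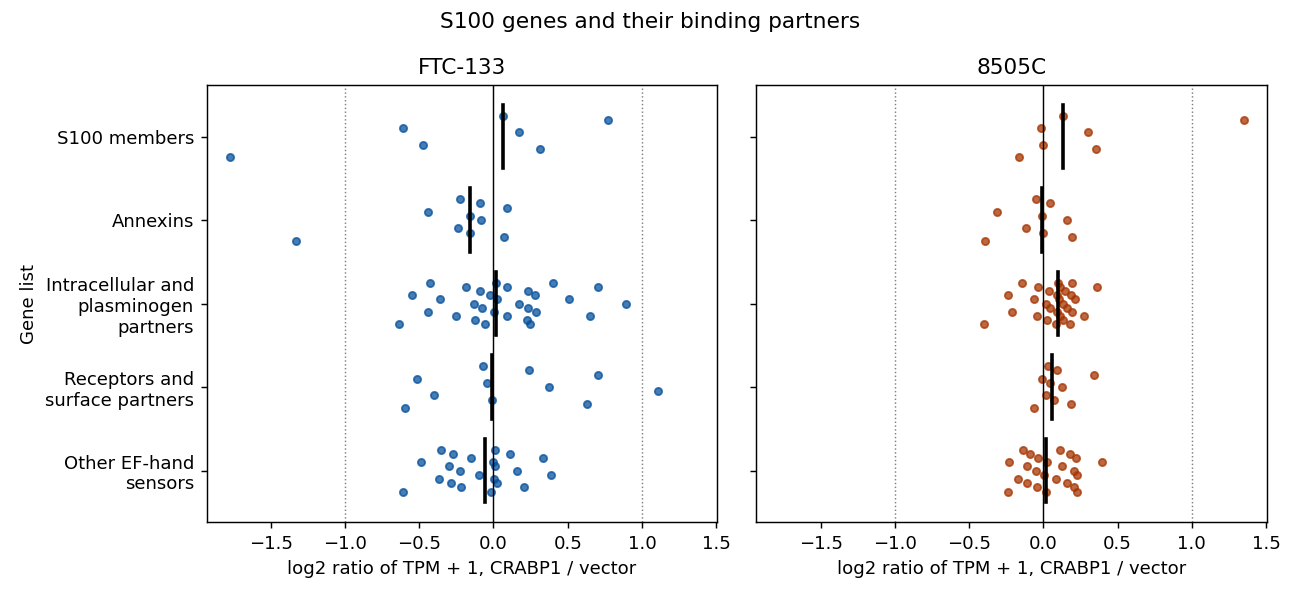
Log2 ratio of TPM + 1, CRABP1 to vector, for the measured genes of 5 lists in FTC-133 (left) and 8505C (right); each point is a gene, the black bar is the list's median, and dotted lines mark 2-fold. Among these lists the S100 genes, chosen with their ratios known, hold the lowest point on the left (-1.78) and the highest on the right (1.35). The highest point, S100A3, rests on about 8 and 27 reads.

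Among receptors and surface partners, 5 of 11 were higher in FTC-133 (median -0.01) and 8 of 10 in 8505C (median 0.06), beside 57.8% and 54.7% of all genes. FPR2, a formyl peptide receptor, was the 1 past 2-fold, at 6.44 and 15.1 TPM in FTC-133 (2.34-fold higher, 1.90 to 2.9). AGER was at 3.98 and 3.74 TPM in FTC-133 and at 8.81 and 9.03 TPM in 8505C. TLR4 was at 0 and 0.0285 TPM in FTC-133 and at 36.8 and 47.0 TPM in 8505C, where the ratio was 1.28 (1.21 to 1.35). The abundant surface partners were integrin beta 1, ITGB1, at 626 and 607 TPM in FTC-133 and at 1118 and 1112 TPM in 8505C, basigin, BSG, between 371 and 482 TPM, and ALCAM, at 198 and 138 TPM in FTC-133 and at 372 and 406 TPM in 8505C.

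Other EF-hand calcium sensors are given for description only, since the S100 genes were chosen with their ratios known. In FTC-133 9 were higher and 13 lower (median -0.06), and with median-ratio scaling 5 and 17. In 8505C 14 were higher and 10 lower (median 0.02), which became 12 and 12 with median-ratio scaling. None of the 22 and 24 passed 2-fold. The most abundant were CALU, a calumenin of the secretory pathway, at 1334 and 1085 TPM in FTC-133 and at 407 and 444 TPM in 8505C, EFHD2, at 121 and 93.3 TPM against 838 and 778 TPM, and the calpain subunit CAPNS1, at 226 and 227 TPM against 354 and 382 TPM.

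The protein-coding genes outside the family whose pattern was closest to that of S100A4 and S100A3 were sought among 14501 candidates. The distance was taken between log2 values of TPM + 1, centred over the 4 libraries. For S100A4 they were RNF17 (distance 0.249), ILDR2 (0.258) and SERTM1 (0.314), and for S100A3 ASNS (0.413), LUM (0.445) and CPNE8 (0.555). RNF17, ILDR2 and SERTM1 were at most 0.318 TPM in 8505C, where S100A4 was at 40.3 and 51.9 TPM. Adding 1 TPM draws values near 0 together, so these genes lie close to S100A4 although nearly absent from 8505C. With 4 libraries this is a likeness in these values only.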

How the data were processed

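RNA of 4 libraries, 1 per group, was analysed. The authors deposited TPM values for 58884 genes. The submitters' processing notes name GRCh38, featureCounts 2.0.0, Trimmomatic 0.38 and FastQC. How reads were aligned, to which annotation and with which strand setting is not given in the sources used here. Multiplied by the exon length of GENCODE 29 (58611 genes), 90.5% to 91.6% of values of up to 50 reads were within 0.02 of a whole read. These reads gave 95% Clopper-Pearson intervals of a ratio, exact Poisson intervals of a level and floors of 3 reads; all cover counting error only. For S100A3, S100A4 and S100A11 another length gave whole reads and was used; the reads, and so the intervals, of S100A6, S100A10 and S100P are approximate. Log2 ratios are of TPM + 1, over genes averaging 1 TPM or more in the 2 libraries of a comparison, with a 2-fold call. With no replicates and members chosen with earlier results of these data known, as were the lists, no test was run. Alternatives were a pseudocount of 0.1, no filter, 5 TPM, median-ratio scaling, removal of mitochondrially encoded genes and 1.5-fold. Named genes were all members; other S100 genes averaging 1 TPM in any comparison; of each other list those past 2-fold with at least 20 reads and the 3 most abundant; the 3 largest ratios per line between S100A10 and S100A1; the 3 genes most like the member with the largest ratio in each line; and those said to be named otherwise. Some list genes are not reported here. Python 3.11.15, pandas 2.3.3 and SciPy 1.17.1 were used.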

Additional observations from a re-analysis of the deposited data

Results flagged for a closer look

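S100A4 and S100A6 had ratios of CRABP1 to vector on opposite sides of 1 in the 2 lines, each with a counting interval that excluded 1. The ratio of S100A4 was 0.290 in FTC-133 and 1.29 in 8505C, and that of S100A6 was 1.05 in FTC-133 and 0.893 in 8505C. With 1 library per group the difference between the lines was not tested. For S100A6 the FTC-133 side rests on the scaling, since its log2 ratio was 0.0022 with median-ratio scaling.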

How the results depend on the processing

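With a 1.5-fold threshold 3 genes instead of 1 were called in FTC-133, 1 higher (S100A2) and 2 lower (S100A4 and S100A16). With a mean of at least 5 TPM 0 instead of 1 were called in 8505C, since S100A3 is then not measured there. Under the other settings the count stayed at 1 in each line, and between the lines it was 4, or 6 with 1.5-fold. No ratio of the 7 genes changed side in any comparison under a pseudocount of 0.1, median-ratio scaling or removal of mitochondrially encoded genes. By size, 11 of the ratios moved beyond their counting error with median-ratio scaling, 4 without mitochondrially encoded genes and 0 with a pseudocount of 0.1. Depth limits S100A8, S100A9 and S100P, and S100A3 in 8505C. No paired analysis was possible because the labels carry no replicate numbers and each group holds 1 library.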
